A study of Danio rerio with 58 samples.

Results

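Ribosomal protein genes encode the proteins that, with ribosomal RNA, build the 2 subunits of the cytoplasmic ribosome. Their reads were followed in single cells of the zebrafish dorsal aorta, the main trunk artery, whose floor gives rise to blood stem cells. The genes were chosen by symbol, as those that begin with rpl or rps and a digit plus rplp0, rplp1, rplp2, rplp2l and rpsa, without S6 kinases and symbols ending in l1. This gave 81 of 35117 genes in the table, 46 with symbols of the large subunit and 35 with symbols of the small subunit. The 35 include rps19bp1, which encodes a nucleolar protein that binds Rps19 and is not itself part of the ribosome. The rule left out some true ribosomal proteins with other symbols, which are described separately.

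The 58 cells formed 4 groups, with 12 floor cells and 10 roof cells at 28 hours post fertilization (hpf) and 18 floor cells and 18 roof cells at 21 hpf. All embryos carried both Tg(flk1:eGFP) and Tg(flk1:NLS-Eos), in which the promoter of the vascular gene flk1 drives a green reporter and a nuclear protein, Eos, that light turns from green to red. Cells with red Eos were picked by hand and made into 1 Smart-seq2 library each, from polyA RNA. The labels name no embryo for any cell, so a group is 1 sample and no p-value was computed. Intervals below are exact 95% intervals for the counting of reads, which carry no molecular identifiers, and cover neither the spread between cells nor that between embryos.

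In every vertebrate cell the ribosomal proteins are made in roughly matched amounts, because each ribosome holds a single copy of nearly all of them. Their mRNAs begin with a terminal oligopyrimidine (TOP) tract, through which growth signals control their translation as a group, together with those of elongation factors. In humans, loss of 1 copy of a ribosomal protein gene can disturb red cell formation in particular. Several zebrafish ribosomal protein genes exist as paired copies, so that the same protein of the ribosome can come from different genes.

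Total counts ran from 3630613 to 8254178 per cell at 28 hpf and from 129849 to 4693992 at 21 hpf, and stage and library preparation cannot be told apart. All cells are labelled endothelial, but of 20 pan-endothelial markers 10 had no read in the thinned sum of the floor cells of 28 hpf, kdr, tie1, egfl7 and cldn5b among them. Their summed level in CPM, the count scaled to library size, was 1145 there and 20146 in the roof cells of that stage. At 21 hpf it was 5807 CPM for floor cells and 24041 CPM for roof cells, and plvapa was the only marker at 0 in the floor. Per cell of 21 hpf the endothelial share had a median of 0.16% in the floor and 2.27% in the roof. Floor cells 3, 6, 16 and 18, with 1.95%, 3.76%, 2.06% and 0.93%, gave most of the endothelial sum of the floor at 21 hpf. Erythroid markers, 21 in number, had a summed level of 13254 CPM in floor cells of 28 hpf, against 53.5 CPM in roof cells, where 16 of them, gata1a, klf1 and alas2 included, were at 0. At 21 hpf the sum was 16030 CPM for the floor, against 69.1 CPM for the roof, where 7 were at 0, the same 3 included. Per floor cell the erythroid share had a median of 0.19% and a highest value of 9.13% at 28 hpf. At 21 hpf these were 0.45% and 8.94%. A few cells thus gave most of the erythroid sum of the floor at 28 hpf. In floor cell 6 of 28 hpf, muscle markers took 6.40% of the counts. The part of these cell types in the floor and roof differences below was not tested.

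Ribosomal protein genes took a larger share of the counts in floor cells than in roof cells at both stages, and a larger share at 28 hpf than at 21 hpf in both regions. At 28 hpf the share per floor cell was 8.08% at the lowest, 11.8% at the median and 19.1% at the highest, against 6.74%, 8.05% and 10.6% per roof cell. All 12 floor cells lay above the median roof cell and 9 lay above the highest one, while the other 3 overlapped the roof. At 21 hpf the share was 2.89% in the lowest floor cell, 7.11% in the median and 11.5% in the highest, against 4.16%, 4.91% and 7.75% in roof cells. Here 15 of 18 floor cells lay above the roof median and 6 above the highest roof cell, and the lowest cell of all 58 was also a floor cell.

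**Figure D1:**
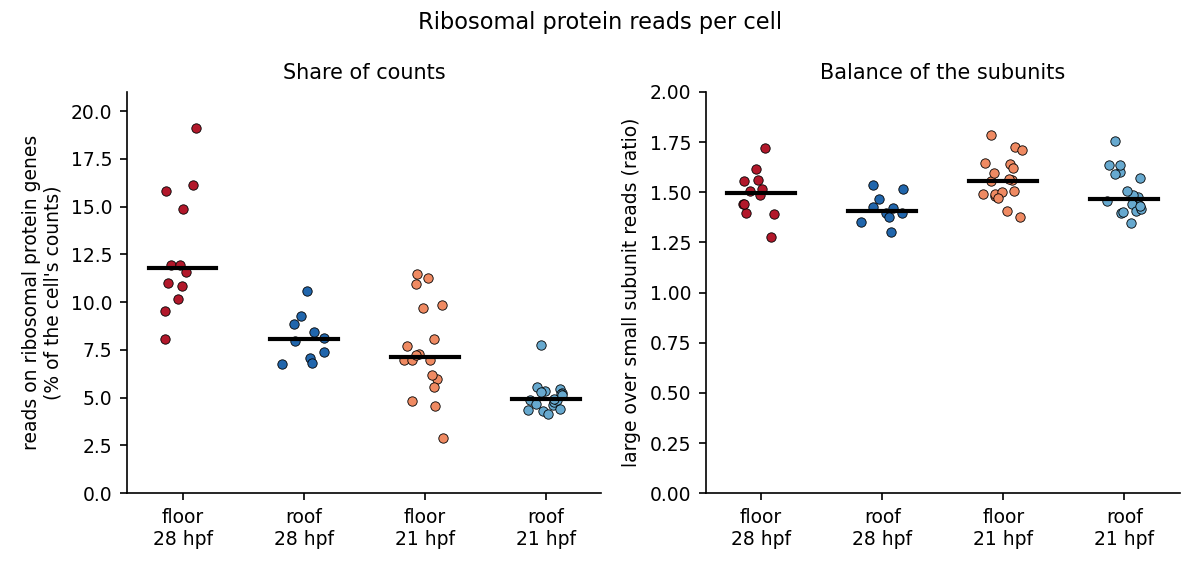
Share of a cell's counts on the 81 ribosomal protein genes (left, %) and the ratio of large to small subunit reads (right) in each of the 58 cells, with 1 point per cell and the group median as a bar. The share is spread from 8.08% to 19.1% over floor cells of 28 hpf and from 4.16% to 7.75% over roof cells of 21 hpf, while the medians of the subunit ratio differ little, between 1.41 and 1.56.

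To weigh each cell alike, 200000 reads were drawn from every cell and summed by group. The shallowest roof cell of 21 hpf, at 129849 counts, could not be used for this. Ribosomal protein genes held 12.6% (12.5 to 12.6) of the summed reads of floor cells and 8.10% (8.06 to 8.14) of those of roof cells at 28 hpf, a ratio of 1.55 (1.54 to 1.56). At 21 hpf they held 7.49% (7.46 to 7.51) for floor cells and 5.06% (5.04 to 5.08) for roof cells, a ratio of 1.48 (1.47 to 1.49). Between stages the ratio of 28 to 21 hpf was 1.68 (1.67 to 1.69) for floor cells and 1.60 (1.59 to 1.61) for roof cells. The floor and roof comparisons share no cells with each other, nor do the stage comparisons, but each stage comparison shares its cells with those of floor and roof. These ratios describe a share of polyA reads, and more ribosomal protein mRNA cannot be told apart from less of the other mRNA.

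Within groups the share was not even, and the uneven cells lined up with the cell numbers in the titles. Floor cells 1 to 5 of 21 hpf held the 5 highest shares of their group, 9.71% to 11.5%, against 2.89% to 8.08% in the other 13. Without these 5 cells the ratio of floor to roof at 21 hpf was 1.24, and that of 28 to 21 hpf in the floor was 2.00. At 28 hpf the 4 roof cells described as dorsal2 had 8.12% to 10.6%, all above the 5 described as dorsal3, with 6.74% to 7.99%. The titles carry only the number of these names, which are called title parts here. Title parts at 28 hpf held cells of a single region each, so title part and region cannot be told apart there.

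Erythroid-rich and other floor cells of 21 hpf overlapped in their share. The 8 floor cells with over 1% of their counts on erythroid markers had shares of 2.89% to 8.08%, and the 10 others had 4.55% to 11.5%, with medians of 6.97% in the 8 cells and 8.50% in the 10. Floor cells 1 to 5 are all among the 10, and the median of the remaining 5 was 5.56%. In 4 floor cells of 21 hpf the endothelial share reached at least that of the lowest roof cell, which is called roof-like below. Their endothelial share was 0.93% to 3.76%, where roof cells had 0.51% at the lowest and 2.27% at the median. The ribosomal protein share of these 4 cells was 4.55% to 9.83% with a median of 5.39%, against 2.89% to 11.5% with a median of 7.28% in the other 14. The 9.83% is that of cell 3, which is also among floor cells 1 to 5. Cells 6, 16 and 18 had 5.96%, 4.55% and 4.82%, within the roof range of 4.16% to 7.75%. Without the cells rich in erythroid or muscle reads, the ratio of floor to roof was 1.62 at 28 hpf and 1.62 at 21 hpf; the 10 floor cells of 21 hpf kept there include cells 1 to 5. The part of erythroid and muscle reads in the ratio was not tested. Across roof cells of 28 hpf the ribosomal protein share moved with the depth, with a Spearman's rho of −0.82 and a Pearson's r of −0.55 to the total count over 10 cells (−0.33 without the 2 cells farthest from the median depth), and the part of depth was not tested. All dorsal3 cells had 4243222 or more counts, and all dorsal1 and dorsal2 cells had 4241080 or fewer. Depth and title part thus cannot be told apart among these roof cells. Across cells, Pearson's r between the erythroid share and the ribosomal protein share was −0.28 over 12 floor cells of 28 hpf and −0.13 over 18 floor cells of 21 hpf, with Spearman's rho at −0.25 for 28 hpf and 0.08 for 21 hpf. Without the 2 cells farthest from the median erythroid share, r was −0.54 at 28 hpf and −0.18 at 21 hpf. These shares come from the same library total.

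Nearly all members leaned the same way. At 28 hpf 75 of the 80 members with 10 or more reads had a ratio of floor to roof above 1, where 50.6% of all genes did. The median log2 ratio was 0.55 over members and 0.05 over all 11195 genes tested. At 21 hpf it was 77 of 80, where 53.6% of all genes were above 1, with medians of 0.67 over members and 0.16 over all 12969 genes. The remaining member was under the 10-read limit. Few members reached a 2-fold difference, the size counted as a call here. At 28 hpf 9 members were 2-fold or more higher in the floor and none lower, which is 9 of 80 where 34.8% of all genes were called higher and 35.5% lower. At 21 hpf it was 10 of 80 members higher and none lower, where 33% of all genes were called higher and 25.6% lower. The count of higher members was thus not above the background in either comparison. The members differed from all genes in the median and in having none lower. Of the 80 members, 77 had a mean of 200 or more CPM at 28 hpf and 73 at 21 hpf. The share past 2-fold was not computed for other genes of that level. The lack of lower members thus has no background of genes at like levels beside it.

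Of the 81 members, 78 had a read in every cell of each group. The coefficient of variation between cells had a median over members of 0.42 in the floor and 0.28 in the roof at 28 hpf, and of 0.37 in the floor and 0.31 in the roof at 21 hpf. The narrowest member was rplp1 in the roof at 28 hpf, with 1783 CPM in its lowest, 1842 CPM in its median and 2224 CPM in its highest cell. In the floor at 28 hpf rplp1 had 1960, 2748 and 4779 CPM in the lowest, median and highest cell, so the groups overlapped. Among the exceptions to full detection were rps19bp1 and the second of 2 entries named rpl37.

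The stalk of the large subunit, which draws elongation factors to the ribosome, is built on the protein of rplp0 with the acidic proteins of rplp1 and rplp2 on top. At 28 hpf rplp0 had 1197 CPM in the lowest, 3030 CPM in the median and 8778 CPM in the highest floor cell, against 769, 1306 and 2770 CPM in roof cells. At 21 hpf it had 536, 1410 and 3851 CPM in floor cells, against 316, 663 and 1597 CPM in roof cells. Floor cells overlapped roof cells at both stages, and the floor was higher by 2.68-fold (2.57 to 2.79) at 28 hpf and 2.27-fold (2.17 to 2.38) at 21 hpf. The other stalk genes did not share this size of difference. At 28 hpf the floor over roof ratio was 1.55 for rplp1, 0.903 (0.836 to 0.975) for rplp2 and 1.09 for rplp2l. The family ratio was 1.55. At 21 hpf, with a family ratio of 1.48, the values were 1.45 for rplp1, 1.24 for rplp2 and 1.77 for rplp2l, so rplp2l was below the family at 28 hpf and above it at 21 hpf. The roof sum of rplp2 at 28 hpf includes roof cell 1 with 1247 CPM, where the next cell had 718 CPM and the median cell 594 CPM. The rplp2 ratio without roof cell 1 was not computed.

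In the rest of the large subunit the ratios at 28 hpf ran on both sides of the family. The gene rpl4, whose protein reaches into the tunnel through which the new peptide leaves, was 2.63-fold higher in the floor, with 1866, 4748 and 11582 CPM in the lowest, median and highest floor cell and 1250, 1855 and 2685 CPM in roof cells. The gene rpl10, whose protein joins the large subunit late, was 2.39-fold (2.27 to 2.51) higher, with 1484, 2584 and 4020 CPM in floor cells and 707, 1062 and 1402 CPM in roof cells. Every floor cell thus stood above every roof cell for rpl10, which was the single member to do so, 1.25% of members where 0.25% of all genes did. Among 596 other genes with a mean of 200 or more CPM it was 19, or 3.19%, so a single member is not above that background. No member had every floor cell below every roof cell, as did 1.38% of all genes and 64, or 10.7%, of those 596, and at 21 hpf no member and 0% of all genes separated the regions either way. Others past 2-fold at 28 hpf were rpl8 at 2.18-fold, rpl7a at 2.04-fold and rpl9 at 2.01-fold. The gene rpl39, whose protein also lines the tunnel, stood at 1.01-fold and rpl23a at 1.03-fold. At 21 hpf rpl4 stood at 2.00-fold, just under the limit, and rpl10 at 1.47-fold. At that stage rpl31 was 2.22-fold, rpl21 2.10-fold, rpl9 2.05-fold and rpl36a 2.03-fold higher in the floor. Without floor cells 1 to 5 these were at 1.67 for rpl31, 1.61 for rpl21, 1.71 for rpl9 and 1.56 for rpl36a, all under the limit.

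In the small subunit, rps2 led at 28 hpf with 2515, 5194 and 17363 CPM in the lowest, median and highest floor cell and 2250, 2847 and 3439 CPM in roof cells, which is 2.35-fold higher. Its ratio was 1.99 when floor cell 9 was left out and 1.37 without the 6 floor cells of part M12, of which cell 12 is titled D12 and only described as M12. Without these 6 cells rplp0 was 1.81-fold, rpl4 1.94-fold, rpl9 1.68-fold and rpl7a 1.48-fold higher in the floor, and 3 of the 9 calls at 28 hpf held, those of rpl8, rpl10 and rps19bp1. With cell 12 kept, rps2 was at 1.64-fold, rplp0 at 2.31-fold and rpl4 at 2.10-fold, and 5 of the 9 held. The gene rpsa, whose product is also known as a laminin receptor, had 1646, 3904 and 9768 CPM in the lowest, median and highest floor cell of 28 hpf, against 2137, 2435 and 3817 CPM in roof cells. Its floor over roof ratio was 1.69 at 28 hpf and 1.23 at 21 hpf. At 21 hpf rps3, whose protein lines the entry of the mRNA channel, was 2.33-fold higher in the floor and rps9 2.04-fold. For rps3 the lowest, median and highest floor cell had 245, 746 and 1358 CPM, against 200, 319 and 522 CPM in roof cells. Without floor cells 1 to 5 the ratio at 21 hpf was 1.86 for rps3, 1.29 for rps9 and 1.60 for rplp0, and 2 of the 10 calls at 21 hpf held, those of rps19bp1 and the second rpl37 entry.

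The member with the largest ratio in both comparisons was rps19bp1, the binding protein that the symbol rule let in. It was 5.34-fold (3.91 to 7.42) higher in the floor at 28 hpf and 5.35-fold (3.68 to 8.00) at 21 hpf, on 125 CPM in the floor and 23.5 CPM in the roof at 28 hpf and 51.9 CPM in the floor and 9.71 CPM in the roof at 21 hpf. Its median cell had 94.6 CPM in the floor and none in the roof at 28 hpf, and 39.5 CPM in the floor and 3.50 CPM in the roof at 21 hpf. All 4 groups held cells without a read of it, and the groups overlapped.

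At the other end stood rps28 and rps26 at 28 hpf, with rps27.1 beside them at 21 hpf. The other Rps26 copy, rps26l, was higher in the floor at both stages and is described below. Rps26 and Rps28 both contact the mRNA where it leaves the channel. At 28 hpf rps28 had 199, 672 and 1207 CPM in the lowest, median and highest floor cell and 509, 745 and 995 CPM in roof cells, a floor over roof ratio of 0.816 (0.759 to 0.877). The ratio of rps26 was 0.819 (0.739 to 0.907). At 21 hpf they were at 0.942 (0.869 to 1.02) for rps28 and 0.857 (0.771 to 0.951) for rps26, and rps27.1 stood lowest at 0.852 (0.807 to 0.900). None of these reached 2-fold and the cells overlapped in each case. Set against the family as a whole, 5 members were 1.5-fold or more above the family ratio at 28 hpf (rps19bp1, rplp0, rpl4, rpl10, rps2) and 7 below it (rps28, rps26, rplp2, rps18, rps29, rpl39, rpl23a), while 68 lay between. At 21 hpf 5 were above, 3 below (rps27.1, rps26, rps28) and 72 between. To make the make-up of floor reads equal to that of roof reads, 9.91% of ribosomal protein reads would have to move to other members at 28 hpf and 7.94% at 21 hpf. These lists and percentages come from group sums of all cells and carry no spread between cells. Without part M12 the ratio at 28 hpf was 1.37 for rps2, 1.81 for rplp0 and 1.94 for rpl4. Of those above at 21 hpf, rplp0 was at 1.60, rpl31 at 1.67 and rps3 at 1.86 without floor cells 1 to 5, where the family ratio was 1.24. The lists were not made again without these cells.

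The comparisons of floor and roof at the 2 stages share no cells. Across 80 members their log2 ratios had a Pearson's r of 0.62 and a Spearman's rho of 0.48, and r was 0.48 without rps19bp1. Genes are not independent replicates, and the values describe these libraries only. Members past 2-fold at both stages were rplp0, rpl9 and rps19bp1, 33.3% of the members called at 28 hpf and 30% of those called at 21 hpf. Of all genes 34.8% were called higher at 28 hpf and 33% at 21 hpf. The share of all genes called at both stages was not computed, so the overlap has no background beside it. Of the 3 members, rplp0 and rpl9 were under 2-fold at 21 hpf without floor cells 1 to 5 and at 28 hpf without part M12, and rps19bp1 stayed past it in both. Of the 80, 74 were above 1 at both stages, and the share of all genes above 1 at both was not computed.

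**Figure D2:**
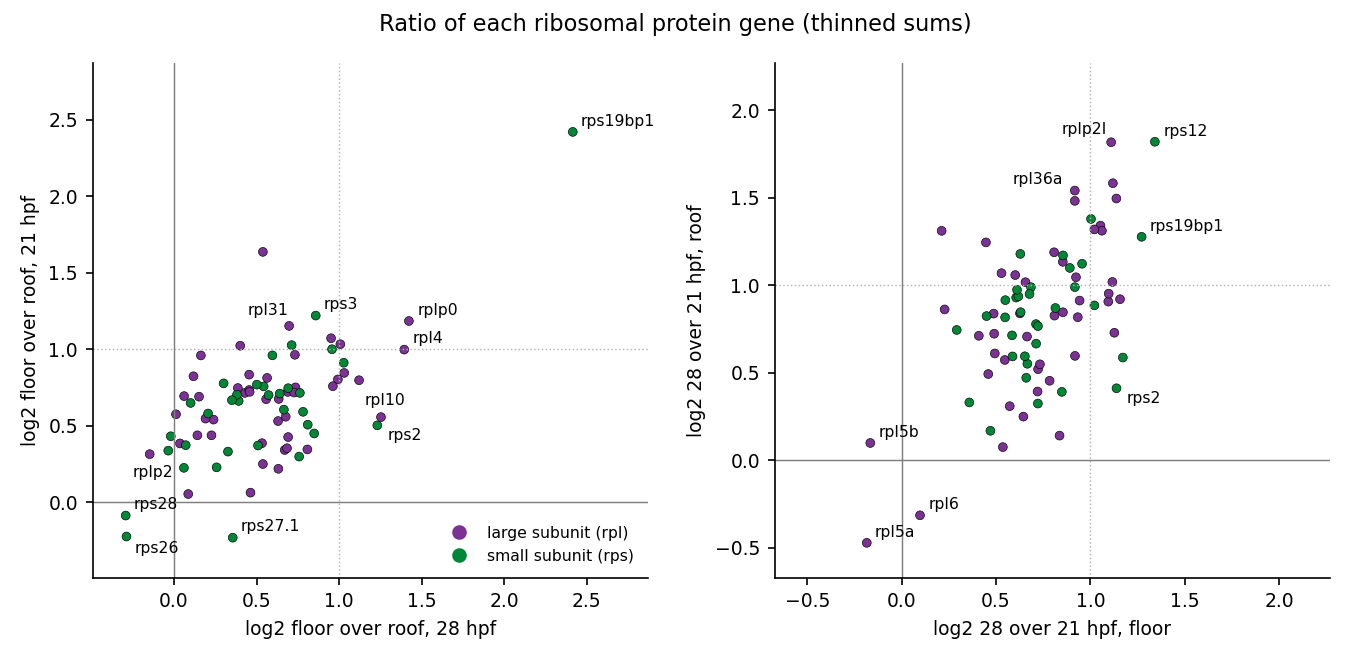
Log2 ratio of each of 80 ribosomal protein genes from thinned group sums, with floor over roof at 28 hpf against 21 hpf (left) and 28 over 21 hpf in the floor against the roof (right). Points are genes, coloured by subunit, solid lines mark equal levels and dotted lines a 2-fold difference. Most points lie above 0 on both axes, rps19bp1 stands apart in the left panel, and in the right panel rpl5a stands lowest on both axes.

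Between stages the members leaned to 28 hpf in both regions, against the lean of the other genes. In the floor 78 of 80 members had a ratio of 28 to 21 hpf above 1, where 37.5% of all genes did. The median log2 ratio was 0.72 over members and −0.55 over all 12245 genes. In the roof it was also 78 of 80, where 42.3% of all genes were above 1, with medians of 0.84 over members and −0.33 over all 11666 genes. In the floor 17 of 80 members were 2-fold or more higher at 28 hpf and none lower, where 16.9% of all genes were called higher and 42.2% lower. In the roof 24 of 80 were higher and none lower, where 22.7% of all genes were called higher and 35.3% lower. The counts of higher members are near the background on this scale. With DESeq2 size factors 35 of 80 were higher in the floor, where 20.6% of all genes were, and 46 of 80 in the roof, where 26% were, so the reading of these counts depends on the scaling. No member was lower under it either, and here too no background of genes at like levels was computed.

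In the roof the rise was also seen cell by cell. For 10 members, 12.5% of those tested, every roof cell of 28 hpf stood above every roof cell of 21 hpf, while 0.154% of all genes, 18 in number, did so. Among 695 other genes with a mean of 200 or more CPM, 7 or 1.01% did so. Among the 10 were rplp1, rplp2l, rpl23, rpl30, rpl36, rpl36a, rpl39, rps12 and rps21. No member had every roof cell of 28 hpf below those of 21 hpf, as 0.0514% of all genes did. Among floor cells no member separated the stages, and 0.00817% of all genes did.

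The member with the largest stage difference was rps12, whose protein sits at the beak of the small subunit. It had 396, 774 and 1229 CPM in the lowest, median and highest roof cell of 28 hpf and 139, 186 and 334 CPM in those of 21 hpf, which is 3.53-fold (3.23 to 3.86) higher at 28 hpf. In floor cells it had 312, 911 and 1723 CPM at 28 hpf and 109, 309 and 662 CPM at 21 hpf, which is 2.53-fold (2.37 to 2.72) higher, and these ranges overlapped. The acidic stalk genes rose in both regions. Among roof cells the ratio of 28 to 21 hpf was 3.52 for rplp2l, 2.99 for rplp2 and 2.02 for rplp1. Among floor cells it was 2.16 for rplp2l, 2.17 for rplp2 and 2.17 for rplp1. For rplp0 it was 1.89 among roof and 2.23 among floor cells, and the floor value was 1.5 without title part M12. In the roof rpl36a at 2.91-fold, rpl29 at 2.82-fold and rpl39 at 2.79-fold followed. Members past 2-fold in both regions were 10, among them rps12, rps19, rplp1, rplp2, rplp2l and rpl29, which is 58.8% of those called in the floor and 41.7% of those called in the roof. Here too the share of all genes called in both regions was not computed, so this overlap has no background beside it.

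In each region 2 members went the other way, rpl5a and rpl5b in the floor and rpl5a and rpl6 in the roof. Rpl5 and Rpl11 bind the smallest ribosomal RNA and, when ribosome assembly fails, also the p53 regulator Mdm2. Of the Rpl5 copies, rpl5a had a ratio of 28 to 21 hpf of 0.721 (0.670 to 0.774) for roof cells and 0.880 (0.830 to 0.932) for floor cells. The other copy, rpl5b, stood at 1.07 (1.00 to 1.14) for roof cells and 0.891 (0.848 to 0.936) for floor cells. Per cell, rpl5a had 225, 511 and 832 CPM in the lowest, median and highest roof cell of 28 hpf and 219, 554 and 1793 CPM in those of 21 hpf, so the cells overlapped widely. The partner rpl11 was at 1.64 among roof cells and 1.33 among floor cells. The gene rpl6 stood at 0.804 (0.774 to 0.834) for roof cells and 1.07 (1.04 to 1.1) for floor cells, and rpl7 at 1.05 in the roof and 1.45 in the floor. In each region rpl5a was at least 1.5-fold below the family ratio.

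Reads of the large subunit exceeded those of the small subunit by a like factor in all groups. The ratio of large to small had a median per cell of 1.5 (1.28 to 1.72) for floor cells and 1.41 (1.3 to 1.53) for roof cells at 28 hpf, with the lowest and highest cell in brackets. At 21 hpf it was 1.56 (1.38 to 1.78) for floor cells and 1.47 (1.35 to 1.76) for roof cells. These are reads and not molecules, since longer mRNAs give more reads and transcript lengths were not used here, so levels of different members are not ranked. Floor cells had the higher median at both stages, by less than the spread between cells.

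The symbols mark 6 sets of paired copies, of which 5 are described, and copies did not share reads in the same way in all groups. The counting tool is not given in the sources used here, and reads that match both copies may have been split between them, so the shares below are uncertain as levels. The clearest set was rps26 and rps26l. Of the reads of both, rps26 took 31.4% (29.5 to 33.3) for floor cells and 46.5% (44.1 to 49.0) for roof cells at 28 hpf, and 34.5% (32.4 to 36.7) for floor cells and 50.2% (47.6 to 52.7) for roof cells at 21 hpf. Per cell the share at 21 hpf was 28.5%, 35.7% and 51.9% in the lowest, median and highest floor cell, against 36.3%, 50.3% and 75.6% in roof cells. All 18 roof cells lay above the floor median and 10 of 18 floor cells lay below the lowest roof cell. At 28 hpf the share was 14.9%, 30.7% and 54.7% in floor cells, against 22.9%, 45.1% and 71.1% in roof cells, where 9 of 10 roof cells lay above the floor median. The roof cells described as dorsal2 had 22.9% to 51.2%, and those described as dorsal3 had 41.9% to 71.1%. Over the alternatives run, the group value at 28 hpf lay between 39.7% and 52.3% for roof cells. For floor cells it lay between 29.5% and 35.4%.

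Against the family, rps26l kept near its ratio and rps26 stood below it. At 28 hpf rps26l was 1.56-fold (1.44 to 1.69) higher in the floor, which is near the family ratio of 1.55, and rps26 was at 0.819-fold. At 21 hpf rps26l was 1.64-fold (1.49 to 1.79) higher in the floor and rps26 at 0.857-fold. Between stages the copies kept to the family, with ratios of 28 to 21 hpf of 1.64 for rps26 and 1.89 for rps26l in the floor, and of 1.71 for rps26 and 1.98 for rps26l in the roof.

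The genes rps27.1 and rps27.2 encode copies of a small subunit protein with a zinc finger. Of their reads, rps27.2 took 11.4% (10.4 to 12.4) for floor cells and 7.81% (6.81 to 8.91) for roof cells at 28 hpf, and 14.9% (13.6 to 16.3) for floor cells and 6.96% (6.06 to 7.94) for roof cells at 21 hpf. All 18 floor cells of 21 hpf lay above the roof median, with 8.50%, 15.5% and 32.5% in the lowest, median and highest floor cell and 1.49%, 6.59% and 19.5% in roof cells. At 28 hpf 11 of 12 floor cells lay above the roof median. The groups overlapped at both stages. At 21 hpf rps27.2 was 2.00-fold (1.69 to 2.38) higher in the floor while rps27.1 stood at 0.852-fold, and without floor cells 1 to 5 rps27.2 was at 1.95-fold. A further copy, entered as zgc:136826 and listed by RefSeq as rps27l, lies outside the symbol rule. Of the reads of all 3 it took 11.2% in the floor and 4.17% in the roof at 28 hpf, and 25.5% in the floor and 9.41% in the roof at 21 hpf. With it counted, rps27.2 took 10.1% in the floor and 7.48% in the roof at 28 hpf, and 11.1% in the floor and 6.30% in the roof at 21 hpf. The zgc:136826 share differed widely between cells, from 2.06% to 69.0% over floor cells of 21 hpf and from 0% to 39.2% over roof cells of 21 hpf.

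The other sets also differed between groups, with wide overlap between cells. Of the reads of rplp2 and rplp2l, the rplp2l copy took 60.4% in the floor and 55.9% in the roof at 28 hpf, and 60.6% in the floor and 51.9% in the roof at 21 hpf. Without floor cells 1 to 5 the floor value at 21 hpf was 55.2%. Of those of rpl5a and rpl5b, the rpl5a copy took 42.3% in the floor and 40.9% in the roof at 28 hpf, and 42.6% in the floor and 50.7% in the roof at 21 hpf. The rpl5a share ran from 23.3% to 79.8% over floor cells of 21 hpf and from 32.6% to 79.9% over roof cells of 21 hpf, so the groups overlapped almost fully. The second entry named rpl37 took 2.85% of the reads of both rpl37 entries in the floor and 2.10% in the roof at 28 hpf, and 4.64% in the floor and 1.60% in the roof at 21 hpf, where its own level was 3.11-fold higher in the floor.

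**Figure D3:**
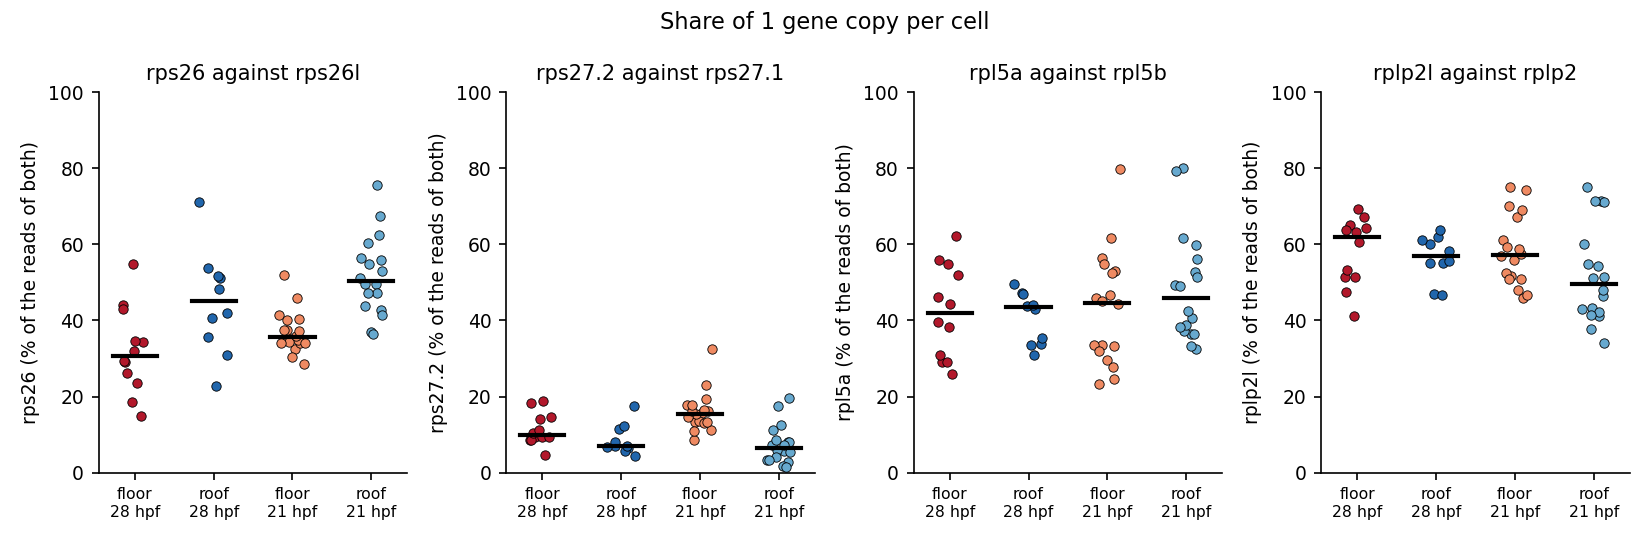
Share of 1 copy among the reads of both copies (%) in each of the 58 cells, for rps26, rps27.2, rpl5a and rplp2l, with the group median as a bar. The rps26 share is lower in floor cells than in roof cells at both stages (medians 30.7% and 45.1% at 28 hpf, 35.7% and 50.3% at 21 hpf), and the rpl5a share overlaps between all groups.

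Some ribosomal proteins, and genes with like symbols, lie outside the symbol rule. The scaffold gene rack1, entered as gnb2l1, was 1.98-fold higher in the floor at 28 hpf and 1.74-fold at 21 hpf. The gene fau, which makes a ribosomal protein fused to a ubiquitin-like part, was 1.24-fold higher at 28 hpf and 1.49-fold at 21 hpf. The genes rpl7l1 and rpl22l1 were set against rpl7 and rpl22 by their symbols, for comparison only. Whether their products are part of the ribosome was not examined. The rpl7-like gene rpl7l1 had 369 CPM in the floor and 56.5 CPM in the roof at 28 hpf, 6.53-fold higher, and 322 CPM in the floor and 74.4 CPM in the roof at 21 hpf, 4.33-fold higher. Of the reads of rpl7 and rpl7l1, rpl7l1 took 14.3% in the floor and 4.28% in the roof at 28 hpf, and 17.4% in the floor and 5.84% in the roof at 21 hpf. The gene rpl22l1 took 29.2% of the reads of itself and rpl22 in the floor and 32.1% in the roof at 28 hpf, and 28.9% in the floor and 21.1% in the roof at 21 hpf.

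Of the members, 21 are orthologs or copies of genes mutated in human Diamond-Blackfan anaemia, in which red cell precursors fail. None of the 21 was 2-fold different between floor and roof at 28 hpf, with a median log2 ratio of 0.39, and 2 were higher in the floor at 21 hpf, with a median of 0.68, where 34.8% of all genes were called higher at 28 hpf and 33% at 21 hpf. At 28 hpf rps19, the gene mutated most often in that disease, had 548, 1334 and 2533 CPM in the lowest, median and highest floor cell and 782, 1168 and 1682 CPM in roof cells, a ratio of 1.15. Between stages 4 of the 21 were 2-fold higher at 28 hpf in the floor and 5 in the roof, rps19 in both, at 2.01-fold in the floor and 2.60-fold in the roof. These counts are near the background of 16.9% of all genes in the floor and 22.7% in the roof.

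Other genes of the translation machinery had larger median ratios of floor to roof than the ribosomal proteins. Ribosome biogenesis genes process ribosomal RNA and assemble the subunits. Of 77 such genes, 73 were 2-fold or more higher in the floor and none lower at 28 hpf. At 21 hpf 70 were higher and none lower. Their median log2 ratios were 3.26 at 28 hpf and 2.51 at 21 hpf. Over all genes 34.8% were higher and 35.5% lower at 28 hpf, and 33% were higher and 25.6% lower at 21 hpf. In the 4 floor cells of 21 hpf with roof-like endothelial share, biogenesis genes took 0.09%, 0.27%, 0.36% and 0.76% of the counts. Roof cells of 21 hpf had 0.19% to 0.71%, and the other 14 floor cells had 0.91% to 2.74%. The difference at 21 hpf thus lay in floor cells with few endothelial reads, and the part of cell type was not tested. The nucleolar chaperone npm1a had 2900 CPM in the floor and 111.5 CPM in the roof at 28 hpf, and 1314 CPM in the floor and 61.8 CPM in the roof at 21 hpf. The rRNA methyltransferase gene fbl had 1097 CPM in the floor and 29.5 CPM in the roof at 28 hpf, and 409 CPM in the floor and 80.9 CPM in the roof at 21 hpf. Nucleolin, ncl, had 2188 CPM in the floor and 370.5 CPM in the roof at 28 hpf, and 1235 CPM in the floor and 257 CPM in the roof at 21 hpf.

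Of 40 initiation factor genes, 31 were higher and 1 lower in the floor at 28 hpf, and 17 higher and 2 lower at 21 hpf, with medians of 1.40 at 28 hpf and 0.88 at 21 hpf. Of all genes 34.8% were higher at 28 hpf and 33% at 21 hpf, so the count of 17 is near the background. Of 73 genes of mitochondrial ribosomal proteins, 57 were higher and 2 lower at 28 hpf, and 40 higher and none lower at 21 hpf, with medians of 1.94 at 28 hpf and 1.17 at 21 hpf. In the 4 floor cells of 21 hpf with roof-like endothelial share, mitochondrial ribosomal protein genes took 0.07% to 0.17% of the counts. Roof cells had 0.09% to 0.20%, and the other 14 floor cells 0.19% to 0.54%. Initiation factor genes took 0.79% to 1.46% in the 4 cells, 0.81% to 2.43% in roof cells and 1.76% to 3.68% in the 14. Of 13 ribosome production regulators tested, 8 were higher and 2 lower in the floor at 28 hpf, with a median log2 ratio of 1.90. At 21 hpf 7 of 13 were higher and 2 lower, with a median of 2.13. Among them mycb, mych and the translation repressor gene eif4ebp1 were past 2-fold higher at both stages, and myca and eif4ebp2 past 2-fold lower. At 28 hpf eif4ebp1 had 1275 CPM in the floor and 130.5 CPM in the roof, while eif4ebp2 had 212 CPM in the floor and 710 CPM in the roof.

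Of these lists, that of elongation factors and other TOP mRNAs had the median nearest to the ribosomal proteins at 28 hpf. At 21 hpf the initiation factors, with a median of 0.88, were nearer. Of the 18 genes of the elongation and TOP mRNA list, 8 of 16 tested were higher and 1 lower in the floor at 28 hpf. At 21 hpf 6 of 15 were higher and none lower, and the medians were 0.97 at 28 hpf and 0.94 at 21 hpf. The count at 21 hpf is near the 33% of all genes called higher there. The elongation factor gene eef1a1l1, entered as eef1a1l2, had 15277 CPM in the floor and 8806 CPM in the roof at 28 hpf, and 9247 CPM in the floor and 4822 CPM in the roof at 21 hpf. This is 1.73-fold higher at 28 hpf and 1.92-fold at 21 hpf. The growth-linked gene tpt1 was 2.01-fold higher at 28 hpf and 1.56-fold at 21 hpf.

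**Figure D4:**
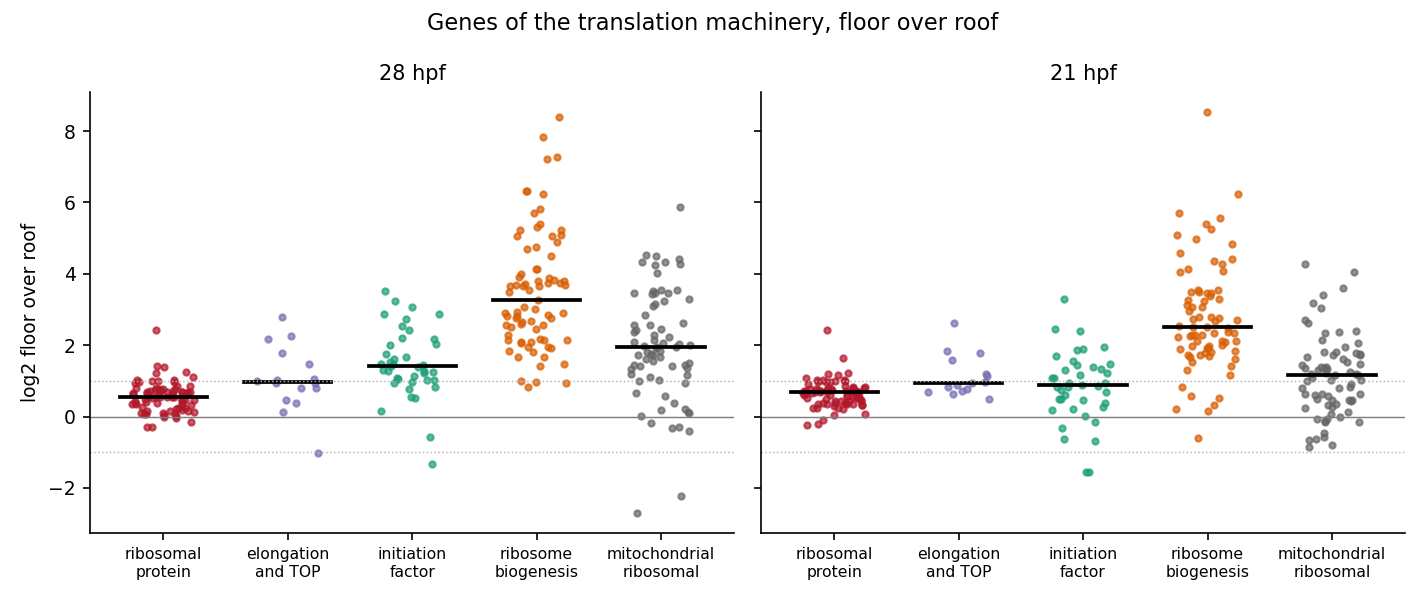
Log2 ratio of floor over roof at 28 hpf (left) and 21 hpf (right) for ribosomal protein genes and 4 other lists of the translation machinery. Points are genes, bars are list medians, and dotted lines mark a 2-fold difference. Ribosomal protein genes lie in a narrow band around medians of 0.55 at 28 hpf and 0.67 at 21 hpf, and ribosome biogenesis genes lie highest, with medians of 3.26 and 2.51.

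Between stages most of these lists had lower medians than the ribosomal proteins. In the roof, where 24 of 80 ribosomal protein genes were 2-fold higher at 28 hpf, 9 of 75 biogenesis genes were higher and 32 lower, with a median log2 ratio of −0.58. In that comparison 22.7% of all genes were called higher, so the count of 24 is near the background. Of 40 initiation factor genes none was higher and 14 were lower, with a median of −0.57. The 14 lower genes are at the background, since 35.3% of all genes were lower in the roof, with a median of −0.33. Of 72 mitochondrial ribosomal protein genes 11 were higher and 33 lower, with a median of −0.75. In the floor the median was 0.06 for biogenesis, 0.06 for initiation factors and 0.35 for mitochondrial ribosomal proteins, against 0.72 for the ribosomal proteins and −0.55 for all genes. The elongation and TOP mRNA list leaned to 28 hpf as the ribosomal proteins did, with medians of 0.67 in the floor and 0.48 in the roof. All 21 S phase genes tested were 2-fold lower at 28 hpf in the roof. At 28 hpf 20 of 20 tested were 2-fold higher in the floor than in the roof, with a median log2 ratio of 4.09, where 34.8% of all genes were higher. At 21 hpf 3 of 21 were higher and 2 lower, where 33% of all genes were higher and 25.6% lower. Floor cells 11 and 6 of 28 hpf, with 1.05% and 0.71% of their counts on S phase genes, gave most of that floor sum. The median floor cell had 0.08%, against 0.01% in the median and 0.07% in the highest roof cell. Proliferation markers thus moved with the stage in the roof and, in the sums, with the region at 28 hpf. Their part in the results was not tested.

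Between single cells the lists were set against the ribosomal proteins within each group. Pearson's r between the share of ribosomal protein reads and that of elongation and TOP mRNA reads was 0.89 over 12 floor cells and 0.87 over 10 roof cells at 28 hpf, and 0.92 over 18 floor cells and 0.73 over 18 roof cells at 21 hpf. Without the 2 cells farthest from the median share of that list, r was 0.95 in the floor and 0.75 in the roof at 28 hpf, and 0.89 in the floor and 0.46 in the roof at 21 hpf. With the share of ribosome biogenesis reads, r was −0.22 in the floor and 0.64 in the roof at 28 hpf, and 0.10 in the floor and 0.76 in the roof at 21 hpf. Without the 2 farthest cells the roof values became 0.01 at 28 hpf and 0.50 at 21 hpf. In roof cells of 21 hpf the initiation factor share had an r of 0.74 and of 0.38 without the 2 farthest cells, so the lists did not part there. All these shares are parts of the same library total, and the values are descriptions of these cells.

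**Figure D5:**
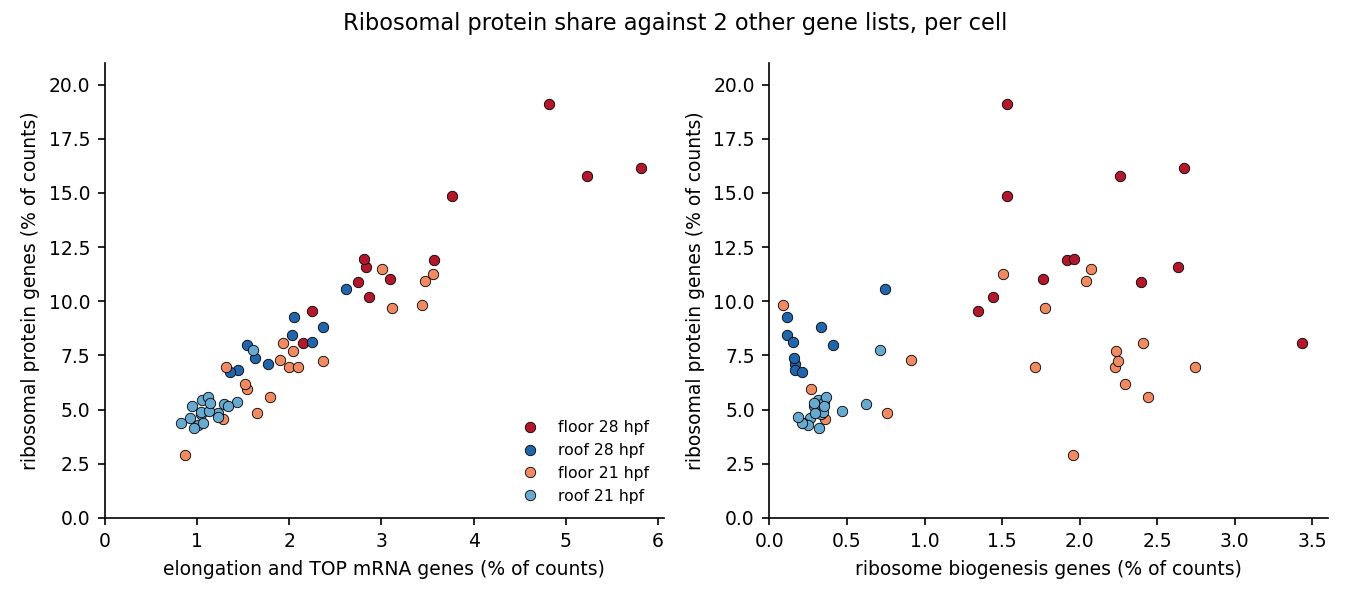
Share of counts on ribosomal protein genes (%) against the share on elongation and TOP mRNA genes (left, %) and on ribosome biogenesis genes (right, %), with 1 point per cell, coloured by group. In the left panel the cells of all groups lie along a single band. In the right panel floor cells with 1.35% to 3.44% of biogenesis reads at 28 hpf span 8.08% to 19.1% of ribosomal protein reads.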

How the data were processed

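The authors deposited gene counts for each of 58 cells in 1 table. Trim Galore, STAR and the build GRCz11 (danRer11) are named per the submitters' processing notes. For versions, counting tool, annotation and strand, nothing is stated (not given in the sources used here). Libraries were 150 bp paired-end, per the labels' protocols.

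Cells were thinned without replacement to 200000 reads (seed 1), which left out 1 cell, and summed by group. A ratio was taken from the summed levels of genes with 10 or more reads over both groups, with a group at 0 set to 3 reads. Per-cell CPM and shares used all reads. A member was called at 2-fold. Named were all members of paralog sets, stalk genes, rpsa, the Diamond-Blackfan list, the genes outside the symbol rule, the 3 most abundant genes of other lists and, per comparison, up to 6 members with the largest and 6 with the smallest ratio at 50 or more CPM; some of these are given only within counts, and a few genes are not reported here. Other members and zgc:136826 were named after their values were seen. The planned use of protein sequences for paralog sets, of coding lengths and of start sites was dropped, since none was at hand, and sets were taken from symbols. Of 368 list entries 355 were matched by symbol and 12 by gene ID. The members and lists were chosen with earlier results of these data known. The steps were tested on simulated data. No count model or p-value was used. Scaling factors came from edgeR 4.0.16 and DESeq2 1.42.0 in R 4.3.3, other work from Python 3.11.15, numpy 2.4.6, pandas 2.3.3, scipy 1.17.1 and matplotlib 3.10.9.

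Tried as alternatives were unthinned sums, equal weight per cell, seed 2, 100000 reads, totals without mitochondrially encoded or ribosomal protein genes, scaling factors, no minimum or 50 reads, 1.5-fold, 1 CPM added to each level, and each cell or title part left out. Leaving out cells of over 1% erythroid or muscle reads, floor cells of roof-like endothelial share, floor cells 1 to 5 of 21 hpf, or only the M12-titled cells was chosen after seeing the data.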

Additional observations from a re-analysis of the deposited data

Results flagged for a closer look

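Of 50 quantities tested in the roof cells of 28 hpf, the only group of 10 cells or fewer, 3 had a cell far from the others, where chance flags about 1 in 20. The highest cell had 1247 CPM of rplp2 and the next 718, with a median of 594 CPM. For rps24 it was 988 CPM against 657 for the next cell. Both of these values came from roof cell 1, the only cell of title part dorsal1. The second rpl37 entry had 88.7 CPM in roof cell 2 against 41.0 CPM in the next cell, with a median of 0.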

How the results depend on the processing

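No paired analysis was possible because no test was made and no label ties a cell's number to the same number in another group. Log2 ratios of the family stayed above 0 under every alternative run, between 0.48 and 0.74 for floor over roof at 28 hpf and between 0.31 and 0.69 at 21 hpf. For 28 over 21 hpf they lay between 0.68 and 1.00 among floor cells and between 0.57 and 0.89 among roof cells. Shares, ratios, subunit balances and paralog shares moved by less than 1 SD between single cells in all alternatives, but that is a wide allowance for a sum over a group: the ratio of floor to roof at 21 hpf fell to 1.24 without floor cells 1 to 5, against 1.48 with them, and the share of the second rpl37 entry ran from 1.00% to 1.97% in the roof at 21 hpf.

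Counts of members past 2-fold moved. The share of all genes past the limit was computed only at 2-fold with all cells, for thinned sums and the scaling factors. Counts at 1.5-fold, with raw sums or with cells left out thus have no background beside them. They do not set the members apart from other genes. For floor over roof at 28 hpf the count of 9 became 37 at 1.5-fold, 15 without title part dorsal2 and 5 without dorsal3, and ran from 6 to 14 with any 1 cell left out (14 without roof cell 2). At 21 hpf the count of 10 became 16 with raw sums, 5 with DESeq2 size factors, 46 at 1.5-fold, 19 without the cells rich in erythroid or muscle reads and 2 without floor cells 1 to 5, and ran from 5 (without floor cell 2) to 14 with 1 cell left out. For 28 over 21 hpf in the floor the count of 17 became 11 with raw sums, 35 with DESeq2 factors, 58 at 1.5-fold, 26 without M12 (28 with floor cell 12, titled D12, kept), 9 without M9, 8 without the cells rich in erythroid or muscle reads, 10 without floor cells of roof-like endothelial share and 36 without floor cells 1 to 5. It ran from 10 (without floor cell 3 of 28 hpf) to 20 with 1 cell left out. In the roof the count of 24 became 46 with DESeq2 factors, 60 at 1.5-fold and 37 without dorsal3, and ran from 20 (without roof cell 2 of 28 hpf) to 31. No member was 2-fold lower, except 1 in the floor with raw sums and 1 with mean per-cell levels. DESeq2 factors moved the median of all genes by 0.23 in the floor and 0.21 in the roof between stages. The cause of these moves was not tested. For single members this was followed only for the called members with the largest ratios, up to 6 in each comparison. Of their values over all alternatives, 33 were under 2-fold, 357 stayed past it and none turned round. Over all calls, 2 of 10 held at 21 hpf without floor cells 1 to 5. At 28 hpf 3 of 9 held without title part M12. No cell had under 2000 genes, so that alternative was not run. The 21 hpf cells were shallow, down to 129849 counts, which limits members with few reads, such as rps19bp1 and the second rpl37 entry.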
